A study of Rattus norvegicus with 2 samples.

Results

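Oligodendrocyte precursors are the glial cells from which myelinating oligodendrocytes arise. They carry the growth factor receptor Pdgfra and the proteoglycan Cspg4 (NG2), stay present through the adult cortex, and receive synaptic input from neurons through AMPA and GABA receptors. Those that begin to differentiate lose Pdgfra and Cspg4 and pass through a short committed state, marked by genes such as Bcas1 and Bmp4, before they make myelin proteins.

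These precursors were taken from single-nucleus libraries of the orbitofrontal cortex, the part of prefrontal cortex that weighs expected outcomes, of male Sprague-Dawley rats aged 8 weeks. The METH group was injected with methamphetamine, a psychostimulant that releases dopamine, at 1 mg/kg into the abdominal cavity for 7 days, as a model of behavioural sensitization, and the control group with saline over the same time. Both groups were killed under pentobarbital, a barbiturate that acts on GABA-A receptors. The cortex of 4 animals per group was taken, and each group has 1 library. The labels do not say how the animals' tissue was combined, so no spread between animals can be given, no test was made, and every interval is a 95% interval for counting error only.

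Precursors were chosen by measured values, the UMI counts (captured RNA molecules) of marker genes in each barcode. A barcode needed at least 500 genes and fewer than 8000 UMIs, and at least 3 of the 7 genes Pdgfra, Vcan, C1ql1, Col5a3, Itga9, Agmo and Arhgap31, with Pdgfra or Vcan among them. It also had to hold no UMI of the myelin genes Mog and Mag, of the neuronal genes Gad1, Gad2 and Slc17a7, or of the astrocyte genes Aqp4 and Gja1. This gave 110 nuclei in the METH library and 131 in the saline library, 241 of 12512 barcodes. None of the 9 barcodes that occur in both libraries was among them. Their median depth was 2465 UMIs and 1558.5 genes in METH and 1912 UMIs and 1286 genes in saline, so the libraries were matched on depth before genes were compared.

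The exclusions removed more nuclei than they kept in the saline library. Of 209 METH and 288 saline nuclei with enough precursor markers, 38 and 60 held Mog or Mag, 55 and 96 held a neuronal gate gene, and 21 and 42 held Aqp4 or Gja1. All 7 markers were seen in 41 METH and 27 saline members, and exactly 3 in 5 and 11. Just outside the gate lay 14 nuclei of each library with 2 markers. Their summed level of 5 precursor markers that the gate does not use was 297 CPM (summed UMIs of the genes per 1000000 UMIs of the nuclei) in METH and 709 CPM in saline, against 4457 and 1698 CPM in the members with exactly 3 markers. The ceiling of 8000 UMIs kept out 0 METH and 2 saline nuclei that met the other conditions.

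The label was checked with genes that no gate uses. Each nucleus was placed with the most likely of 8 class profiles taken from the other library, after every gate gene was removed. The precursor profile was the best for 107 of 110 METH members (97.3%, exact Clopper-Pearson interval 92.2 to 99.4%) and for 122 of 131 saline members (93.1%, 87.4 to 96.8%). Of the other members, those of METH were nearest an astrocyte, a mural and an excitatory neuron profile, and the 9 of saline were spread over 5 classes. Among barcodes outside every gate, 77 of 1611 in METH and 106 of 2819 in saline were also nearest the precursor profile. Of these, 72 and 97 held a UMI of a gene that the precursor gate excludes, and 5 and 9 had too few gate markers only.

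The genes with the highest level in precursors relative to the next class were Megf11, Pcdh15 and Sema3d among others, rather than the classical lineage markers outside the gate. Of 2648 genes with at least 50 UMIs, 27 stood more than 4-fold above each of 7 other gated classes in both libraries. After every nucleus was thinned to 1000 UMIs 25 genes did, and not all of them were among the 27. The gate chose nuclei on some of these differences, so the levels are a description. Megf11, a transmembrane protein with repeated EGF-like domains, reached 1419 CPM in METH and 1169 CPM in saline, while the next class, excitatory neurons, had 38.8 and 42.5 CPM. Pcdh15, a protocadherin, reached 1960 and 1945 CPM, against 81.9 and 93.5 CPM in excitatory neurons. Sema3d, a secreted semaphorin that guides axons, stood at 789 and 631 CPM, and the transcription factor Myt1 at 265 and 235 CPM. Both had next classes below 40 CPM.

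The same group held Fam89a, Inava and Chst5, the signalling adaptors Shc4 and Pstpip2, and the kinase Stk32a. It also held the potassium channel Kcnh8, the AMPA receptor auxiliary subunit Cacng4, the calcium release channel Ryr3, the sarcoglycan Sgcd and the cadherin Cdh3. Mybl1 encodes a Myb-family transcription factor, Rlbp1 a retinaldehyde-binding protein, Sema5b a semaphorin and Xylt1 an enzyme that starts glycosaminoglycan chains on proteoglycans. The gene ranked highest of all carries only the provisional symbol NEWGENE_1308624, and stood at 123 and 96.2 CPM against at most 1.09 CPM in any other class.

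The classical lineage markers outside the gate, Cspg4, Sox10, Olig1, Olig2 and Tnr, did not pass the 4-fold rule. Cspg4 stood at 388 CPM in METH (117 UMIs) and 420 CPM in saline (118 UMIs). Mural nuclei, which include pericytes, also held it, at 323 and 221 CPM. Sox10, the transcription factor of the oligodendrocyte lineage, was at 461 and 371 CPM in precursors and at 236 and 265 CPM in mature oligodendrocytes, and at 0 in astrocytes. Olig2 and Olig1, partner factors of the same lineage, were at 143 and 82.0 CPM and at 126 and 96.2 CPM. Tnr, a matrix glycoprotein, was at 2086 and 1554 CPM, with at most 523 CPM in any other class. Precursors shared other genes with astrocytes. Ptprz1, a receptor phosphatase, was at 3177 and 2997 CPM in precursors and at 1510 and 1443 CPM in astrocytes. Bcan and Cspg5, 2 proteoglycans, and Luzp2 were higher in astrocytes than in precursors in both libraries. Nkx2-2 and Neu4 were at or near 0, with at most 1 UMI in a library, which limits nuclei with a detected UMI and not nuclei that express them.

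**Figure D1:**
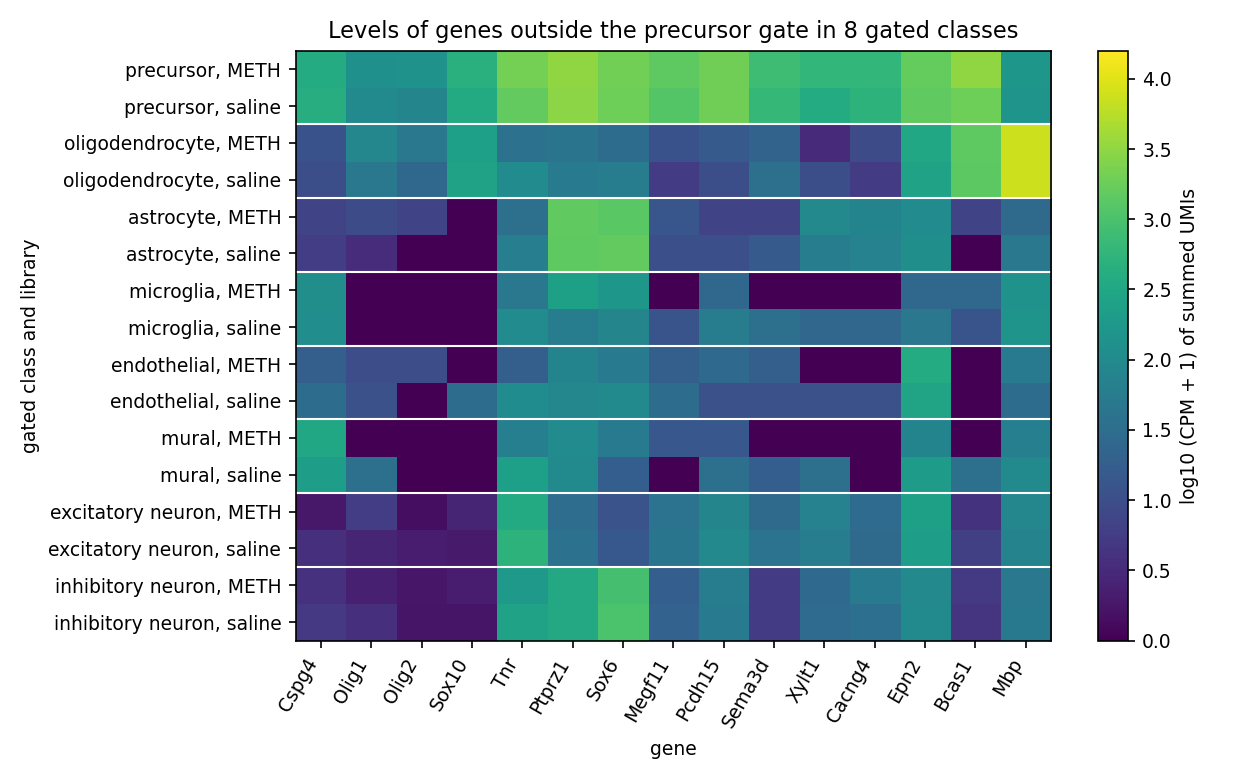
Levels of selected genes outside the precursor gate in 8 gated classes, as log10 (CPM + 1) of summed UMIs; each class has a METH row above a saline row. Megf11, Pcdh15 and Sema3d are high in the precursor rows alone, Ptprz1 and Sox6 also in astrocytes, and Bcas1 also in mature oligodendrocytes, where Mbp is highest.

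The first comparison asked whether precursors took the same share of each library. They were 3.29% of METH barcodes with at least 500 genes and fewer than 8000 UMIs (2.71 to 3.95%) and 2.49% of saline barcodes (2.09 to 2.95%), a log2 ratio of 0.40 (0.023 to 0.78). The denominator differs in depth: 39.1% of METH and 24.0% of saline barcodes with at least 500 genes lay at or above 8000 UMIs and were left out. Over all barcodes with at least 500 genes the shares were 2.00% and 1.89%, with a log2 ratio of 0.081 (-0.30 to 0.46). Among the non-neuronal gates the sign turned, with 17.0% and 18.1% and a log2 ratio of -0.086 (-0.46 to 0.29). The sign and the size of the difference thus depended on the denominator.

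For the comparison of genes, 102 nuclei of each library were paired on total UMIs, the METH nuclei at a median of 2412.5 and the saline nuclei at 2118. A gene was called where its ratio and the bound of its interval nearest to 0 both passed 1.5-fold, among 2311 genes with at least 50 UMIs. Few genes reached that size. In METH, 2 genes were higher (0.0865%), Arhgef10l and Zdhhc14, and 4 genes were lower (0.173%), Cst3, Gabrb1, Ipo11 and Snhg11. The median log2 ratio of METH over saline over all 2311 genes was 0.00041, with 1158 above and 1153 below 0, and 268 genes (11.6%) passed 1.5-fold by the ratio alone. Other sets of nuclei called between 0 and 5 genes higher and between 1 and 8 lower at this size, so the calls themselves are few and move with the set.

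Arhgef10l, an exchange factor for small GTPases, was at 174 CPM in METH (127 to 232) and 63.0 CPM in saline (35.3 to 104), a log2 ratio of 1.47 (0.60 to 2.41). It was found in 32 METH and 11 saline nuclei of 102. Its log2 ratio was 0.76 after thinning to 1000 UMIs and 2.30 in nuclei with no microglia marker, and it was 0.50 in excitatory neurons. Zdhhc14, a palmitoyltransferase, was at 424 CPM (349 to 510) and 198 CPM (145 to 263), a log2 ratio of 1.10 (0.60 to 1.62). In mature oligodendrocytes the log2 ratios were -0.80 for Arhgef10l, with 11.9 and 20.7 CPM, and 0.08 for Zdhhc14, with 498 and 470 CPM. Apod, an apolipoprotein of the lipocalin family, had a log2 ratio of 1.38 (0.58 to 2.24), from 197 and 75.6 CPM, but 1 nucleus held 30.8% of its METH UMIs. Without the highest nucleus of each library its log2 ratio was 1.11, and without nuclei holding 2 of the genes Gpr17, Bmp4, Enpp6 and Bcas1 it was 0.66. Errfi1, a feedback inhibitor of the EGF receptor, was at 367 CPM in METH (298 to 448) and 172 CPM in saline (124 to 234), a log2 ratio of 1.09 (0.55 to 1.65). It was also higher in METH in oligodendrocytes, with 494 and 250 CPM, and in astrocytes, with 210 and 140 CPM.

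Cst3, the secreted protease inhibitor cystatin C, was at 151 CPM in METH (108 to 206) and 399 CPM in saline (323 to 488), a log2 ratio of -1.40 (-1.97 to -0.85). Cst3 was also lower in METH in mature oligodendrocytes, with 152 and 491 CPM, and its log2 ratio was -0.37 in astrocytes and -0.91 in inhibitory neurons. Its level was far higher in microglia, at 3483 CPM in METH and 2561 CPM in saline. The 12 microglia markers summed to 87.0 CPM in matched METH precursors and 391 CPM in matched saline precursors, a log2 ratio of -2.17 (-2.89 to -1.50). Among all members, Cx3cr1, P2ry12, C1qb and Tmem119 were at 0 in METH and none was at 0 in saline, and a nucleus held at most 47.9 marker UMIs of 10000 in METH and 123 in saline, with medians of 0. In nuclei with no UMI of such a marker the Cst3 log2 ratio was -1.16.

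Gabrb1, the beta1 subunit of GABA-A receptors, was at 533 CPM in METH (449 to 629) and 1151 CPM in saline (1019 to 1296), a log2 ratio of -1.11 (-1.41 to -0.81). It was found in 62 METH and 79 saline nuclei of 102, and its log2 ratio lay between -1.30 and -0.77 in every other set of nuclei or scaling tried. In oligodendrocytes Gabrb1 had a log2 ratio of -0.85, at the low level of 75.9 and 137 CPM. In astrocytes, at 2555 and 2824 CPM, and in excitatory neurons, at 1237 and 1391 CPM, the log2 ratios were -0.14 and -0.17. Those are the classes with the most Gabrb1, and markers of excitatory neurons were also lower in METH precursors: 14 such genes summed to 2395 CPM in METH and 3021 CPM in saline, a log2 ratio of -0.34 (-0.49 to -0.18). Over all members 13 of the 14 were above 0 in each library, with Tbr1 at 0 in METH and Slc17a6 at 0 in saline. Per nucleus they made up a median of 21.7 and at most 126 of 10000 UMIs in METH, and a median of 27.3 and at most 91.7 in saline. The part of these neuronal reads in the Gabrb1 difference was not tested.

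Ipo11, a nuclear import receptor, was at 71.9 CPM in METH and 202 CPM in saline, a log2 ratio of -1.49 (-2.34 to -0.70), and of -0.75 after thinning to 1000 UMIs, while its log2 ratio was between -0.10 and 0.24 in the other 4 classes compared. Snhg11, a long noncoding RNA, was at 129 and 307 CPM, a log2 ratio of -1.25 (-1.89 to -0.65), and Elavl4, a neuronal RNA-binding protein, at 170 and 353 CPM, a log2 ratio of -1.05 (-1.61 to -0.51). Snhg11 stood at 4622 and 4020 CPM in inhibitory and at 2525 and 2128 CPM in excitatory neurons. In members nearest the precursor profile its log2 ratio was -0.92, without the nuclei holding 2 of Gpr17, Bmp4, Enpp6 and Bcas1 it was -0.54, and in astrocytes it was -0.97. Ryr2, a calcium release channel, was at 284 and 492 CPM in precursors, a log2 ratio of -0.79 (-1.23 to -0.36). Tmcc3, Prr3, Xkr6 and Peli1 completed the 10 genes lowest in METH, with log2 ratios between -1.37 and -1.09 (Tmcc3 was at -0.47 after thinning), and Usp48, Mgat5b, Trit1, Arhgap24, Bcas1 and Nfasc the 10 highest, with log2 ratios between 0.63 and 1.40.

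**Figure D2:**
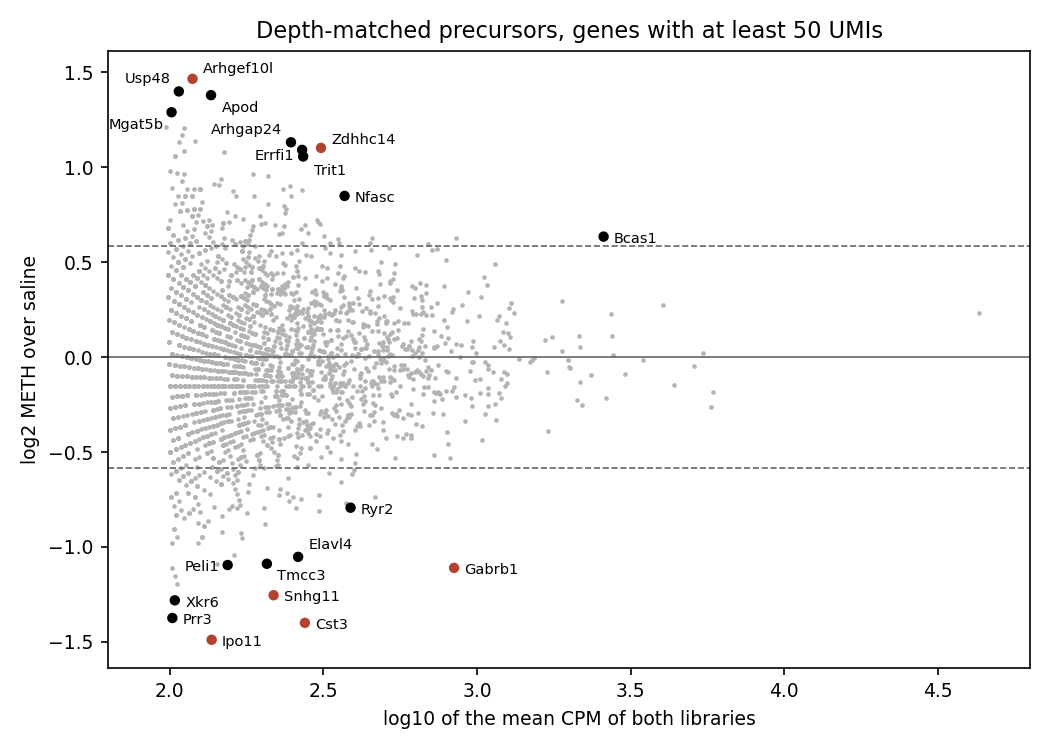
Log2 ratio of METH over saline for 2311 genes in 102 matched precursors of each library, against the log10 of the mean CPM; red points are the 6 called genes, black points the other ranked genes, and dashed lines mark 1.5-fold. Most genes lie between the dashed lines, and Bcas1 stands out among abundant genes at 0.63.

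The measured genes of the committed precursor state were higher in METH as a group. Of 15 listed genes, 8 were measured and all 8 lay above 0, with a median log2 ratio of 0.59 against 0.00041 over all genes, although none was called at the 1.5-fold size. Bcas1, a myelin-associated protein that marks newly differentiating oligodendrocytes, was at 3144 CPM in METH (2934 to 3365) and 2025 CPM in saline (1849 to 2215), a log2 ratio of 0.63 (0.47 to 0.80). Fyn, a Src-family kinase that acts in myelination, was at 1335 and 950 CPM, a log2 ratio of 0.49 (0.25 to 0.74). Nfasc, the adhesion protein of the paranodal junction between axon and myelin, was at 477 and 265 CPM, a log2 ratio of 0.85 (0.40 to 1.31). Sirt2, a deacetylase abundant in myelin, was at 348 and 189 CPM, a log2 ratio of 0.88 (0.35 to 1.43). Tns3, a tensin of focal adhesions, was at 757 and 521 CPM, with 0.54 (0.21 to 0.87).

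The intervals of the remaining measured members, Bmp4, Itpr2 and Tcf7l2, spanned 0. Bmp4, a secreted signal of the committed state, was at 136 and 84.0 CPM, a log2 ratio of 0.70 (-0.13 to 1.56). Summed over the list, the level was 6908 CPM in METH and 4572 CPM in saline, a log2 ratio of 0.60 (0.49 to 0.71), and 0.56 (0.42 to 0.71) without Bcas1. The classical committed marker Gpr17 had 2 UMIs in METH and 0 in saline, where 0 of 131 nuclei allows a share of up to 2.29% of nuclei with a detected UMI, which does not limit the share that expresses it. In mature oligodendrocytes the log2 ratios of METH over saline were 0.12 for Bcas1, -0.19 for Nfasc, -0.11 for Sirt2, -0.15 for Fyn and -0.31 for Tns3.

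**Figure D3:**
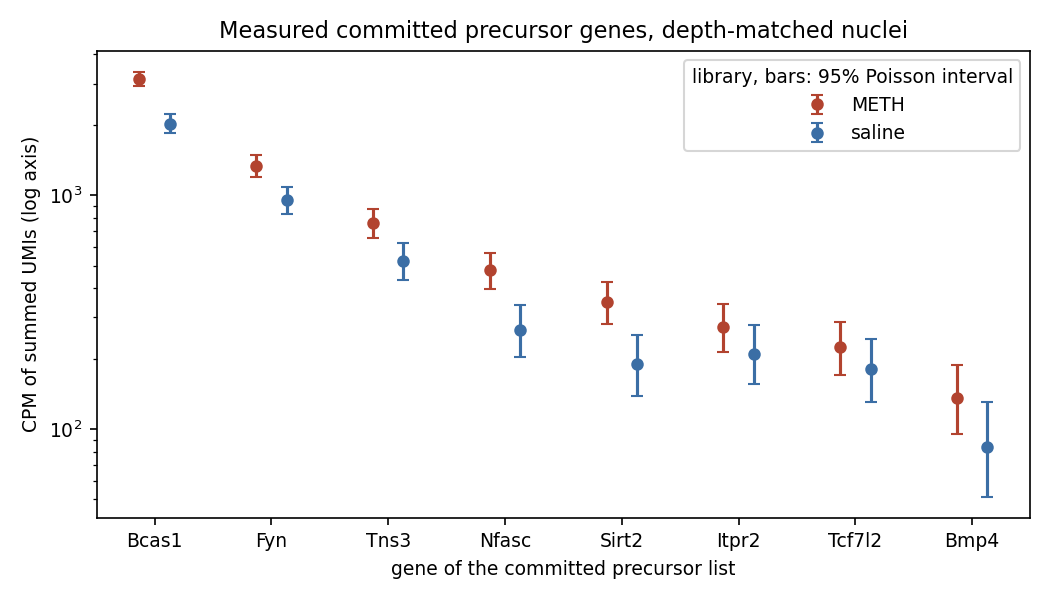
Levels of the 8 measured committed precursor genes in the 102 matched nuclei of each library, in CPM on a log axis; bars are 95% Poisson intervals of the summed UMIs. METH lies above saline for all 8 genes, and the bars are clear of each other for Bcas1, Fyn, Tns3, Nfasc and Sirt2.

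Taken per nucleus, the list as a whole differed more in its upper range than at its median. It made up a median of 33.8 of 10000 UMIs in METH and 32.5 in saline. The 90th percentile was 157 in METH and 77.4 in saline, and the highest nuclei were at 480 and 451. Bcas1 alone differed at the median too, with 14.0 in METH and 10.0 in saline, and its 90th percentiles were 89.8 and 43.1. Levels over 100 of 10000 UMIs were seen in 13 of 102 METH nuclei (12.7%, 6.96 to 20.8%) and in 6 of 102 saline nuclei (5.88%, 2.19 to 12.4%), intervals that overlap. That level is a point on a range, with 5 nuclei of each library between 80 and 120, and it was chosen after the values were seen. After thinning to 1000 UMIs, 13 of 108 METH nuclei and 9 of 128 saline nuclei passed it. The 13 METH nuclei held 52.6% of the list's summed per-nucleus level in that library and the 6 saline nuclei 31.9%. These nuclei were chosen by the list itself, so a high share in them is in part fixed by the choice.

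A different choice, by a UMI of at least 2 of Gpr17, Bmp4, Enpp6 and Bcas1, found 26 of 110 METH members (23.6%, 16.1 to 32.7%) and 20 of 131 saline members (15.3%, 9.58 to 22.6%). After thinning these were 11.1% and 5.47%. Most members held Bcas1, so the choice rested largely on Bmp4, found in 25 METH and 22 saline members. Between the libraries the picked nuclei were alike in some genes and unlike in others. Fyn, a list member not used for the choice, was higher in them in both libraries. Its level was 2565 CPM in METH and 1320 CPM in saline, against 936 and 800 CPM in the other members. Itpr2, another such member, was at 242 and 295 CPM, against 273 and 209 CPM. Tnr was at 3305 CPM in the picked METH nuclei and 1615 CPM in the picked saline nuclei, against 1658 and 1540 CPM in the other members. The nuclei were picked on members of the list, so a lower ratio of the list or of Bcas1 without them is fixed by the choice. List members that the choice did not use had log2 ratios of -0.09 for Fyn, 0.22 for Tns3, 0.41 for Sirt2 and 0.76 for Nfasc in the remaining nuclei. Leaving out the 5 nuclei of each library highest in the list left the sum at 0.58. With 13 METH and 6 saline nuclei over 100 of 10000 UMIs, this leaves more high nuclei in METH than in saline. It therefore cannot show whether the difference rested on the high nuclei.

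**Figure D4:**
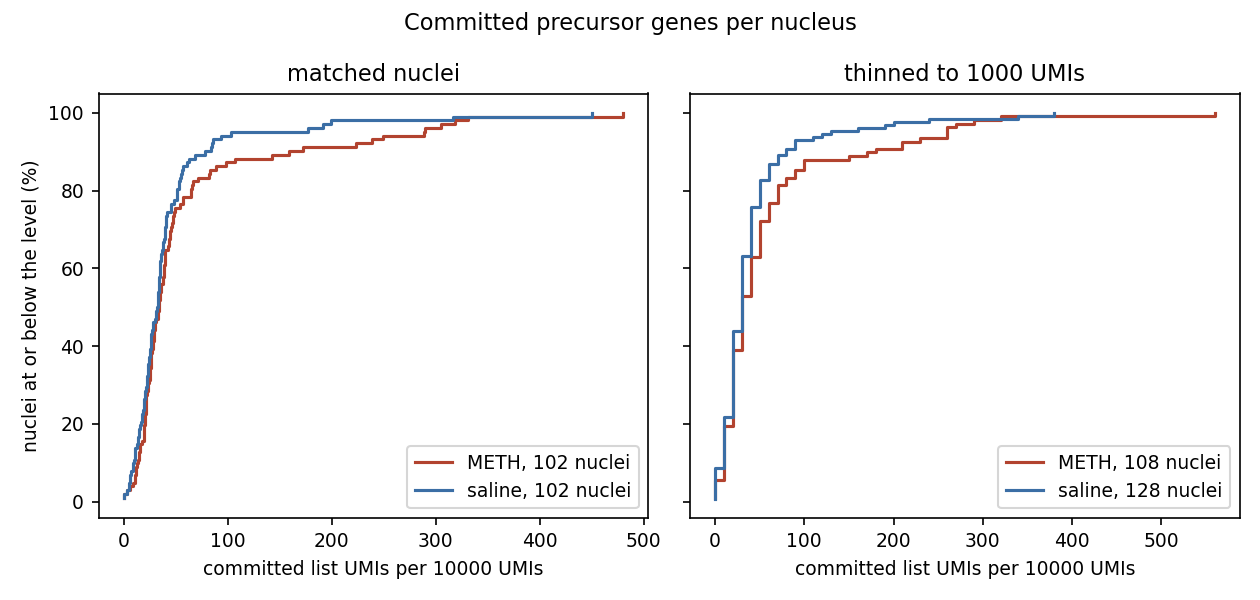
Share of precursor nuclei at or below each level of the committed list, in UMIs per 10000 UMIs of a nucleus, for 102 matched nuclei of each library (left) and after thinning to 1000 UMIs (right, 108 METH and 128 saline nuclei). The curves lie close up to the median, near 33 in the matched nuclei, and part above it, where METH has more nuclei over 100.

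Nuclei high in the committed list differed from the other precursors in further genes as well. Tnr had a median of 70.2 of 10000 UMIs in the 13 METH nuclei and 50.8 in the 6 saline nuclei, against 9.98 and 12.7 in the others. Neither Tnr nor Ptprz1 nor Cspg4 was used by the gate or the list. Pdgfra, a gate gene given as a description, was found in 3 of 13 and 3 of 6 of these nuclei, but in 84 of 89 and 91 of 96 of the rest. Cspg4 was found in 1 nucleus of each set, but in 55 and 60 of the rest, and Ptprz1 had medians of 3.66 and 13.4 against 32.3 and 30.8. The gate required Pdgfra or Vcan, so members without Pdgfra had to hold Vcan, and a nucleus without either could not be a member however high its committed genes were.

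Mbp, myelin basic protein, was found in 6 of 13 METH nuclei high in the list and in 2 of 6 such saline nuclei, and in 7 of 89 and 11 of 96 of the rest. UMIs of Mbp were also found in 7.74% of METH and 9.38% of saline astrocytes, at median depths of 3006 and 2426 UMIs, against 12.7% and 12.2% of all precursors at 2465 and 1912. Bcas1 had a UMI in 1.94% of METH astrocytes and in 0 of 160 saline astrocytes, which allows a share of up to 1.88% with a detected UMI, against 87.3% and 77.9% of precursors.

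Several of the genes ranked highest in METH were concentrated in these nuclei. Arhgap24, a Rac-specific GTPase-activating protein, was at 340 CPM in METH and 155 CPM in saline over all matched nuclei, a log2 ratio of 1.13 (0.56 to 1.72). It had a UMI in 11 of the 13 METH nuclei high in the list, at 1449 CPM, against 400 CPM (147 to 870) in the 6 saline nuclei, while the remaining nuclei held 147 CPM in METH and 139 CPM in saline. Trit1, a tRNA-modifying enzyme, was at 1347 CPM in the 13 METH nuclei and 533 CPM (230 to 1050) in the 6 saline nuclei, and at 196 and 152 CPM in the remaining METH and saline nuclei. The called gene Zdhhc14 was at 1042 CPM in the 13 METH nuclei and 333 CPM (108 to 777) in the 6 saline nuclei. It stayed higher in METH in the remaining nuclei, at 316 and 188 CPM. Errfi1, Gabrb1 and Cst3 were different: in the remaining nuclei Errfi1 was at 382 and 184 CPM, Gabrb1 at 596 and 1211 CPM, and Cst3 at 173 and 404 CPM, in the same direction as over all matched nuclei.

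Genes of dividing cells were detected in few precursors of either library. Top2a or Mki67, genes of proliferating cells, had a UMI in 2 of 110 METH members (1.82%, 0.221 to 6.41%) and 3 of 131 saline members (2.29%, 0.475 to 6.55%), against 0.645% and 0.625% of astrocytes. No cell cycle gene of 31 listed had 50 UMIs, and their sum had a log2 ratio of -0.14 (-0.53 to 0.25). A difference in division between the libraries was not detectable at this depth. Myelin genes summed to 1112 CPM in METH and 899 CPM in saline, a log2 ratio of 0.31 (0.048 to 0.57), with 3 of 4 measured members above 0 and none called.

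Identity genes differed little between METH and saline as a sum, with a slight lean to METH. Of 26 listed genes outside the gate, 19 were measured, 13 lay above and 6 below 0, and none was called, with a median log2 ratio of 0.23 and a summed log2 ratio of 0.08 (0.02 to 0.14). Ptprz1, at 2943 and 3135 CPM, Pcdh15, at 1963 and 2038 CPM, and Sox6, at 1967 and 1992 CPM, had log2 ratios between -0.09 and -0.02 with intervals across 0. Tnr was at 2081 and 1693 CPM, a log2 ratio of 0.30 (0.11 to 0.49). Outside the nuclei high in the committed list, Tnr was at 1360 CPM in METH and 1440 CPM in saline. Among transcription factors, Olig2 had a log2 ratio of 0.85 (0.02 to 1.73), from 144 and 79.8 CPM, and Sox5, which restrains differentiation, one of -0.43 (-0.77 to -0.09), from 518 and 698 CPM. The adaptor Afap1l2 was at 341 and 210 CPM, a log2 ratio of 0.70 (0.18 to 1.23). The gate genes, among them Pdgfra, at 1169 and 1303 CPM, and Vcan, at 1536 and 1509 CPM, chose the nuclei and are given as a description. The interval of the log2 ratio lay above 0 for Arhgap31 (0.16 to 0.52) and Col5a3 (0.001 to 0.60), and spanned 0 for the other gate genes.

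Receptors for GABA were lower in METH as a sum, led by Gabrb1. Of 9 measured genes, 6 lay below 0 and 1 was called, against 1153 of 2311 below 0 and 0.173% called lower over all genes, and the median log2 ratio was -0.28. Their sum was 2519 CPM in METH and 3442 CPM in saline, a log2 ratio of -0.45 (-0.60 to -0.30), and -0.21 (-0.38 to -0.03) without Gabrb1. The subunits Gabra4 and Gabra2 had log2 ratios of -0.61 and -0.52, each with an interval across 0, and the GABA-B receptor subunits Gabbr1 and Gabbr2 had 0.11 and 0.19. After thinning to 1000 UMIs the sum without Gabrb1 had a log2 ratio of -0.13 (-0.39 to 0.13). The summed markers of excitatory neurons and of astrocytes, classes with more Gabrb1, had log2 ratios of -0.34 (-0.49 to -0.18) and -0.35 (-0.58 to -0.11) in the same nuclei, and their part in the GABA receptor difference was not tested.

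Glutamate receptors showed no common direction. Of 12 measured genes of the AMPA, kainate and delta families, 8 lay above and 4 below 0, with a median of 0.08 and none called. Gria2, the AMPA subunit that sets calcium permeability, was at 2005 and 2387 CPM, a log2 ratio of -0.25 (-0.43 to -0.08). Gria4 was at 1710 and 1609 CPM, with 0.09 (-0.11 to 0.29), and the kainate subunit Grik2 at 2440 and 2832 CPM, with -0.22 (-0.37 to -0.06). The NMDA subunit Grin2b, at 121 and 210 CPM, had a log2 ratio of -0.80 (-1.48 to -0.13). It was 1 of 5 measured NMDA and metabotropic genes, 4 of which lay below 0 with a median of -0.21.

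Ion channel genes were slightly lower in METH as a sum. Of 21 measured channel genes 14 lay below 0, with a median of -0.11 and none called, and the summed log2 ratio was -0.11 (-0.20 to -0.03), while the median was 0.13 without the nuclei holding 2 of the 4 committed genes. They ranged between Ryr2 and the potassium channel partner Kcnip3, at 204 and 96.7 CPM with a log2 ratio of 1.08 (0.35 to 1.85). Of 33 synaptic and neural adhesion genes 16 lay above 0, with a median of -0.01. Abundant members with narrow intervals had small ratios: the postsynaptic adhesion protein Nlgn1 had a log2 ratio of -0.26 (-0.37 to -0.16), and Opcml one of 0.27 (0.15 to 0.40).

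Matrix and guidance genes were near the overall balance, with none called. Of 16 measured matrix and proteoglycan genes 9 lay above 0, with a median of 0.07 and a summed log2 ratio of 0.04 (-0.03 to 0.12). The highest were the collagens Col20a1, with a log2 ratio of 0.91 (0.18 to 1.67), and Col16a1, with 0.71 (0.00 to 1.44). Xylt1 was at 552 and 403 CPM, with 0.45 (0.07 to 0.84). Of 12 guidance genes 8 lay above 0, with a median of 0.24 and a summed log2 ratio of 0.07 (-0.03 to 0.17), and the median was 0.04 in nuclei with no microglia marker. Sema5a, at 832 and 551 CPM, had a log2 ratio of 0.60 (0.28 to 0.92).

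Growth factor receptors and their feedback genes were balanced, 6 above and 6 below 0 with a median of -0.05. The extremes were Errfi1 and Igf1r, the receptor for insulin-like growth factor 1, at 200.5 and 336 CPM with a log2 ratio of -0.75 (-1.27 to -0.23). Among 5 measured ligands Vegfa, the vascular growth factor, was at 280 and 441 CPM, with -0.66 (-1.11 to -0.21). Of the Notch, BMP and Wnt genes 3 lay above and 3 below 0, with a median of 0.01. Receptors for dopamine, serotonin, noradrenaline, acetylcholine and opioids, listed with those for adenosine, were mostly below the minimum of 50 UMIs. Of 29 genes only the adenosine receptor Adora1 was measured, at 144 and 75.6 CPM with a log2 ratio of 0.93 (0.08 to 1.82). The whole list summed to 352 CPM in METH and 370 CPM in saline.

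Genes that glucocorticoids are known to induce were higher in METH as a sum. Of 6 measured, 4 lay above 0, against 1158 of 2311 over all genes. None was called, against 0.0865% called higher over all genes, and the median was 0.63. The whole list was at 1922 and 1429 CPM, a log2 ratio of 0.43 (0.23 to 0.63). Errfi1 gave 97 of its 508 UMIs in METH and 41 of 340 in saline, and no sum without Errfi1 was made. Besides Errfi1 the genes above 0 were the transcription factors Klf9, with 0.88 (0.08 to 1.73), and Zbtb16, at 620 and 416 CPM with 0.58 (0.21 to 0.95), and the receptor chaperone Fkbp5, with 0.69 (-0.06 to 1.47). The kinase Sgk1, another target of these hormones, was at 219 and 231 CPM, with -0.07 (-0.63 to 0.48).

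Mitochondrial RNA was lower in METH precursors, and secreted glial proteins were lower as a sum, in large part through Cst3. Of 8 measured secreted proteins 6 lay below 0, against 1153 of 2311 over all genes, and Cst3 was the 1 called, against 0.173% called lower over all genes. The median was -0.19, and 0.0018 after thinning to 1000 UMIs. The summed log2 ratio was -0.27 (-0.44 to -0.11), and -0.15 (-0.32 to 0.03) without Cst3. Psap, a lysosomal protein precursor, had a log2 ratio of -0.81 (-1.62 to -0.04) and Apoe, the main lipid carrier of the brain, -0.29 (-0.65 to 0.07). All 8 measured mitochondrial genes lay below 0, with a median of -0.39, or -0.17 after thinning to 1000 UMIs, and none was called. Markers of astrocytes were lower too, with 10 of 14 genes above 0 in METH and 9 in saline and a log2 ratio of the sum of -0.35 (-0.58 to -0.11). Those of inhibitory neurons were at 2016 and 2030 CPM. The part of RNA from other cells in these differences was not tested.

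**Figure D5:**
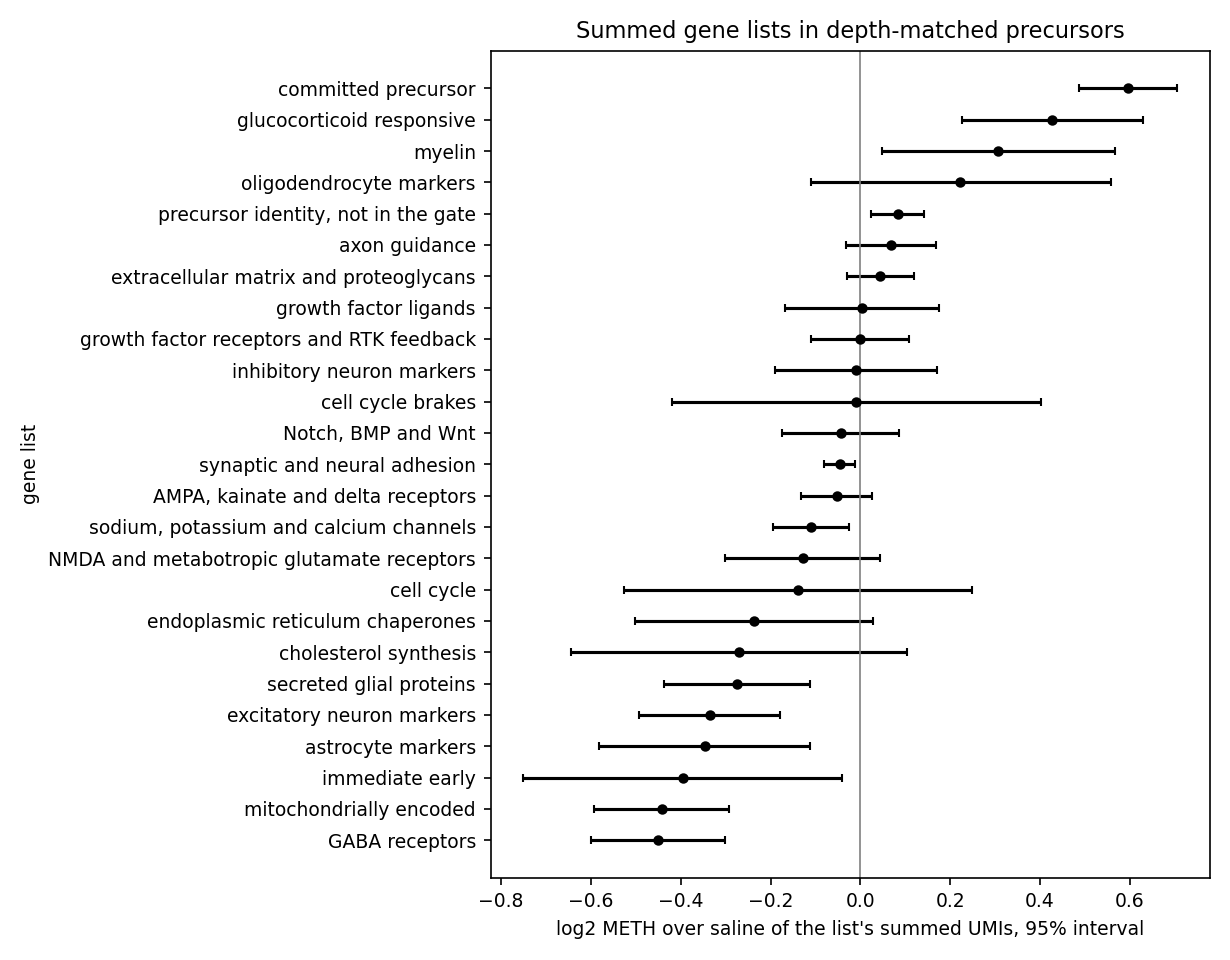
Log2 ratio of METH over saline of the summed UMIs of each gene list in 102 matched precursors of each library, with 95% counting intervals, for lists with at least 200 UMIs. The committed precursor list is the highest, at 0.60, and GABA receptors the lowest, at -0.45; most lists lie between.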

How the data were processed

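Per the file headers, Cell Ranger 7.0.0 made the raw UMI counts that the authors deposited for each gene and barcode, from Chromium 3' libraries of nuclei per the labels. The submitters' processing notes name hg38, a human build, although the identifiers are those of rat Ensembl genes. Which rat build and annotation were used is not stated. The libraries held 44969322 UMIs (METH) and 42221257 UMIs (saline).

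Precursors and 7 comparison classes were gated on marker genes. METH and saline precursors were paired on log2 UMIs (optimal assignment, at most 0.25 apart), and UMIs were summed and scaled to CPM. Ratios have exact conditional binomial intervals, levels exact Poisson and shares exact Clopper-Pearson intervals, all covering counting error only at a level of 95%. An allowed share at 0 is 3 counts of the total. With 1 library per group no test was made. Thinning drew 1000 UMIs per nucleus; 2 METH and 3 saline precursors were shallower. Doublets were not removed from the gate: Scrublet (scanpy 1.11.5, expected rate 0.06) called 0 METH and 1 saline member, and leaving such barcodes out was an alternative, as was TMM scaling (edgeR 4.0.16, factor 0.9837). The interval code and the size rule were tested on simulated data.

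The members, the 29 gene lists and the alternatives were chosen with earlier results of these data known. Genes were named by rule: the 10 highest and 10 lowest by the interval bound nearest to 0, the members of each list with the largest ratios, the 20 genes most above the next class, and the members of the gate, identity and committed lists. Mitochondrial, ribosomal protein, haemoglobin and clone-named genes were left out of the ranks. Abundant list members with narrow intervals were added after their values were seen. Listed genes without a symbol in the deposited tables were not measured. Some listed genes are not reported here.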

Additional observations from a re-analysis of the deposited data

How the results depend on the processing

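At the 1.5-fold size 2 genes were higher in METH and 4 lower. Higher genes numbered 4 in all members unmatched, without Scrublet doublets or with TMM scaling. They numbered 1 with at least 4 gate markers, without the highest nucleus per gene or with at least 100 UMIs per gene, and 0 after thinning, where fewer genes reached the count minimum. Lower genes numbered 8 unmatched, 1 after thinning and 2 with nuclei weighted alike. A minimum of 20 UMIs per gene gave 10 higher and 13 lower, a 2-fold ratio without the interval 17 and 14, and a smaller required fold 16 and 16. Alternatives added after the data were seen gave 5 higher in members nearest the precursor profile, 0 higher and 2 lower without nuclei holding 2 of the 4 committed genes, 1 higher without the 5 nuclei highest in the committed list, and 1 higher and 1 lower without nuclei holding a microglia marker. Where no construction of the set shows it, the cause was not tested. The log2 ratio of the share of precursors was -0.0856 among non-neuronal gates, against 0.40. Of 280 values of the 20 ranked genes under 14 alternatives, 280 kept the sign. The genes were ranked on these same nuclei and the alternatives draw on overlapping nuclei, so kept signs were nearly fixed in advance. The limit on mitochondrial UMIs and the lifted UMI ceiling left the matched ratios unchanged. Arhgap24 went from 1.13 to 0.0041 without nuclei holding 2 of the committed genes. The median of the committed list stayed above 0, between 0.31 and 0.66. No paired analysis was possible because each group is 1 library. Depth limits the rarer genes: Prr3, with 50 UMIs in all, had an interval of -2.35 to -0.46.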
